A study of Homo sapiens with 71 samples.

Results

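Glucocorticoid targets and genes of gluconeogenesis were followed in HepG2 cells, a human hepatoma line, after exposure to river water. The 6 genes were FKBP5 and PER1 as glucocorticoid targets, PPARGC1A as a coactivator of gluconeogenic genes, and the enzymes PCK1, PCK2 and FBP1. They were taken by symbol from a table of 31012 gene entries. Of the 6, 4 had enough reads to be tested among 6916 features, and PER1 and FBP1 were read from their counts. The libraries CRMI 1, SRMI 3 and VROH 2 were set aside by the rule that defined the gene set.

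Surface water was sampled at 16 sites on tributaries of the Great Lakes, called here by the 4-letter codes of the labels. Flasks of cells were combined and dealt out to dishes, grown for 72 h and then kept for 48 h in serum-supplemented medium of which 75% was filtered site water, or purified water in the controls. The site groups were BRWI, CROH, FRWI, GRMI, GRNY, IHIN, JRMI, LRMN, MAWI, MROH, ORNY and RRMI with 4 libraries each, and CRMI, MIWI, SRMI and VROH with 3. The 8 control libraries formed the last group. All dishes came from 1 pool of 1 cell line and held the same antibiotics and serum, so p-values measure the spread between dishes, which may be technical. RNA was assayed by TempO-Seq, in which pairs of detector oligos are ligated on a transcript and the ligated products are counted. Library numbers below are those of the table's columns.

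The 60 site libraries held between 2.91 and 9.89 M counts (M stands for 1e6), against 8.18 to 14.5 M in the 8 control libraries. Depth and exposure were therefore partly confounded, and levels are given as CPM (counts per 1e6 reads) on scaled library totals. All 14 hepatocyte markers listed were detected, and their summed level was 163393 to 244040 CPM in site libraries, against 158315 to 219156 CPM in controls. The 6 immune markers summed to 756.7 to 3898 CPM in site libraries, against 1504 to 2098 CPM in controls. Among them PTPRC was at 0, and 4 had enough reads to be tested. The 4 endothelial markers summed to 0.923 to 4.28 CPM, against 1.86 to 3.74 CPM in controls, with KDR at 0 and 2 tested. The 4 markers of other epithelial cells summed to 2193 to 4068 CPM, against 2378 to 3418 CPM in controls. The fibroblast list summed to 1.99 to 10.4 CPM in site libraries, against 3.91 to 6.31 CPM in controls.

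Cortisol and related steroids enter the cell and bind the glucocorticoid receptor (GR), which then leaves its chaperone complex and binds DNA. FKBP5 encodes a co-chaperone of that complex and lowers the receptor's affinity for hormone, so its induction forms a feedback loop. In liver GR, glucagon signalling through CREB, and FOXO factors act together on PCK1, the cytosolic phosphoenolpyruvate carboxykinase, and PPARGC1A, the coactivator PGC-1α, is part of that programme. PCK2 encodes the mitochondrial carboxykinase and is also a target of the amino acid stress factor ATF4. FBP1 encodes fructose-1,6-bisphosphatase, a late step of the pathway, and PER1 is a clock gene that GR induces directly.

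The genes lie on 6 chromosomes. In GENCODE release 29 on GRCh38, FKBP5 spans chr6:35573585-35728583 and PER1 chr17:8140472-8156506, both on the minus strand. PPARGC1A spans chr4:23755041-23904089 and FBP1 chr9:94603133-94640249, also on the minus strand. PCK1 lies at chr20:57561080-57568112 and PCK2 at chr14:24094053-24110598, both on the plus strand. PCK2 overlaps NRL on the opposite strand and PER1 overlaps the annotated gene AC129492.3 on the same strand. Where the probes sit in these genes was not known here.

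Upstream sequence of the genes was read as a description. Of the 6 genes, 5 (all but PCK1) had a promoter window among 35116 in RefSeq (GRCh38.p14). Each window covered the 250 bases before a gene's start. The E-box CACGTG, the element bound by clock factors such as CLOCK and BMAL1, stood in 1 of 2 windows of FKBP5, the window of PER1 and 1 of 2 windows of PPARGC1A, and it was found in 6.34% of all windows. The other window of FKBP5 and that of PPARGC1A held none, and the PPARGC1A window shown belongs to a start upstream of the GENCODE span given above. The 3 windows are shown 5′ to 3′ on the gene's strand, the minus strand of GRCh38.p14, with the E-box in capitals; they are chr6:35688916-35689165 for FKBP5, chr17:8152405-8152654 for PER1 and chr4:24472906-24473155 for PPARGC1A.
FKBP5: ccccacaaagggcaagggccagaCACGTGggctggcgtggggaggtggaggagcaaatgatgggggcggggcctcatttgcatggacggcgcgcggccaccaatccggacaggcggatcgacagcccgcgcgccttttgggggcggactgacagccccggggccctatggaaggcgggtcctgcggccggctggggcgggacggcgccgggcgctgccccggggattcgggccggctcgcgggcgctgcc
PER1: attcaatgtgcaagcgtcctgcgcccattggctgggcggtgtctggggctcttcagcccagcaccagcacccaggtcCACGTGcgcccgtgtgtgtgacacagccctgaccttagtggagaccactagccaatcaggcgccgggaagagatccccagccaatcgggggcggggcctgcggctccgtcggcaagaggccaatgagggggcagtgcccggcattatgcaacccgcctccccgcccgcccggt
PPARGC1A: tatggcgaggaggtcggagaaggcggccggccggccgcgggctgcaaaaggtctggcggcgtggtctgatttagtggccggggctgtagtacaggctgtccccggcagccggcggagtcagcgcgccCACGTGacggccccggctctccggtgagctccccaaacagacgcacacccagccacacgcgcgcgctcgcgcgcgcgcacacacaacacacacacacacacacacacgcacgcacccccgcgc
In PPARGC1A the last 2 letters of the E-box are the first 2 of TGACG, the core of the cAMP response element, which was found in 21.2% of all windows. The searches covered both strands. The complete cAMP response element TGACGTCA (1.65% of all windows), the GR hexamer AGAACA (12.4%), the complete GR palindrome (0.00285%) and the FOXO motif GTAAACA (2.98%) gave no match in the windows of the 5 genes. GR commonly acts from more distant enhancers, which these windows do not cover.

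FKBP5 was the gene of the set that differed most between river waters. Its level in the waters of BRWI, LRMN and CROH was lower than in purified water, and in ORNY water it was higher. The 16 sites differed for FKBP5 with F = 9.77 (edgeR quasi-likelihood test, Benjamini-Hochberg adjusted p = 2.22e-09), against a median F of 2.07 over all features. PCK1 (F = 5.09, adjusted p = 2.17e-05) and PPARGC1A (F = 3.69, adjusted p = 0.000704) also passed, so that 3 of the 4 tested genes were called between sites (adjusted p under 0.05). Of all tested features 49.8% were called in the same comparison, so a call between sites was common. PCK2 did not pass (F = 0.661, adjusted p = 0.851). With the 3 libraries set aside put back, FKBP5 remained called, while PCK1 (F = 1.4, adjusted p = 0.326) and PPARGC1A (F = 1.37, adjusted p = 0.35) were not. That fit holds VROH 2, a library of only 0.00884 M counts. With CRMI 1 and SRMI 3 put back and only VROH 2 left out, PCK1 (F = 3.88, adjusted p = 0.000617) and PPARGC1A remained called. PCK2 is given no test with SRMI 3 in the fit, since that library was set aside for its PCK2 level.

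Set against the controls site by site, the 4 genes gave 64 tests, of which 6 were called (9.38%), 1 as higher and 5 as lower. Over all features the share called in such tests was 4.09%, with 1.89% higher and 2.2% lower. For the unweighted mean of the 16 sites against controls, 0 of the 4 genes were called with edgeR and 0 with DESeq2, where edgeR called 0.174% of all features, and 0 had an unadjusted p under 0.05. The log2 differences at that mean were -0.11 ± 0.07 for FKBP5, -0.03 ± 0.08 for PCK1, -0.11 ± 0.17 for PCK2 and -0.05 ± 0.06 for PPARGC1A (± SE). The mean log2 level of FKBP5 lay above that of controls at 8 sites and below it at 8. These counts were 7 and 9 for PCK1, 5 and 11 for PPARGC1A, and 3 and 13 for PCK2. With all 71 libraries only FKBP5 at LRMN kept its single-site call (log2 change -0.59, edgeR adjusted p = 0.0142). The value of PCK2 at SRMI in that fit (1.47) rests on the PCK2 level of SRMI 3 that the rule used. It is a description and is not counted as a call.

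**Figure D1:**
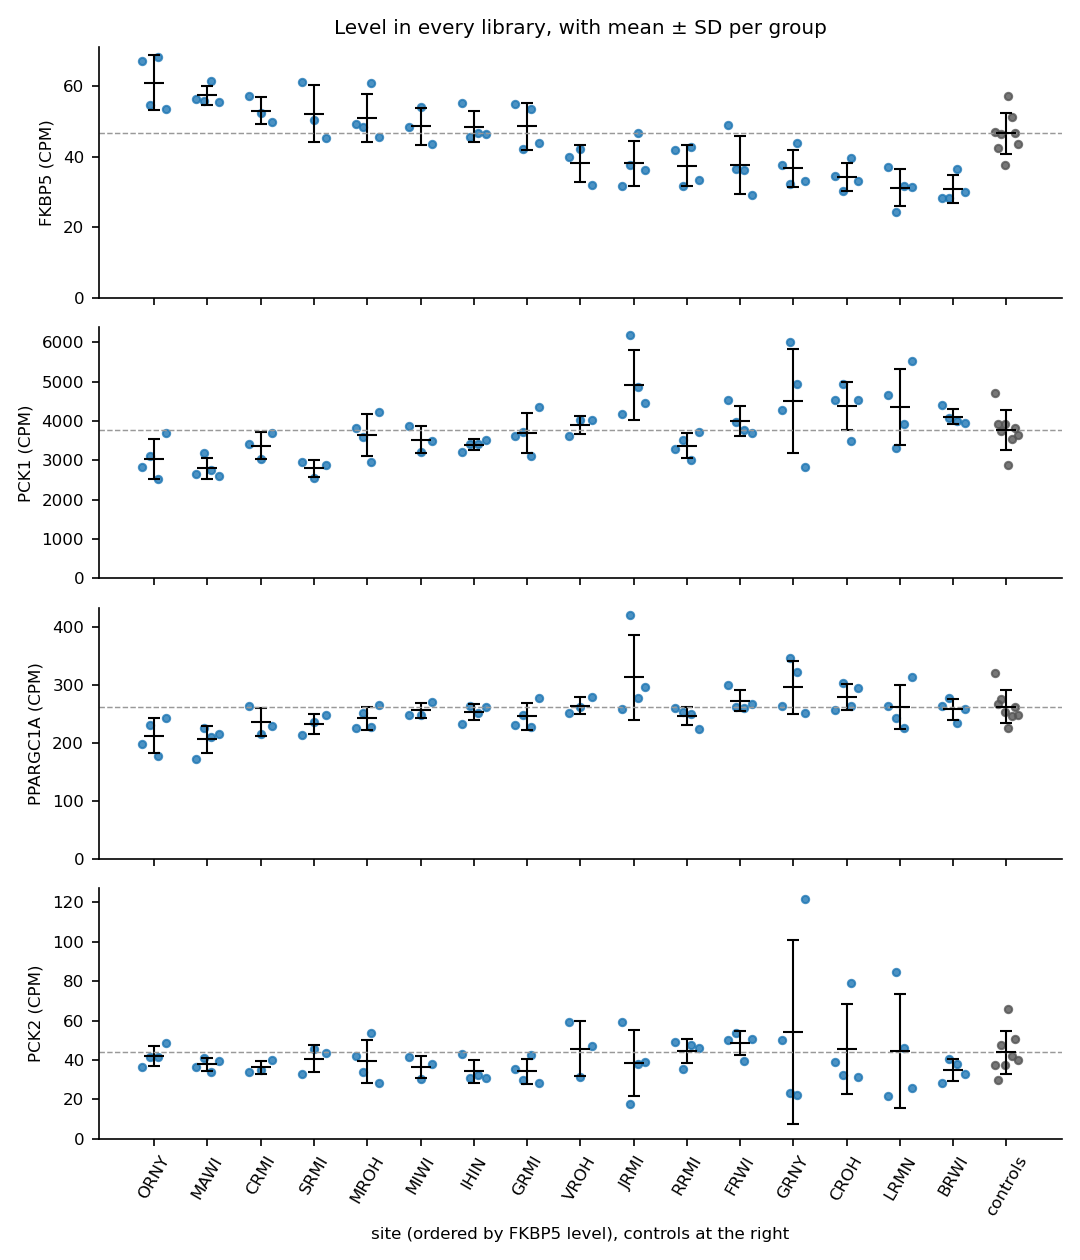
Levels of FKBP5, PCK1, PPARGC1A and PCK2 in CPM (linear axes from 0). Each point is 1 library of a site (blue) or of the controls (grey, at the right), bars are mean ± SD, the dashed line is the control mean, and sites are ordered by FKBP5. FKBP5 averaged 61.0 CPM at ORNY and 30.8 CPM at BRWI, against 46.6 CPM in controls, while PCK2 points spread widely within GRNY, LRMN and CROH.

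FKBP5 in the 4 BRWI libraries was 28.3, 28.3, 36.6 and 30.0 CPM, against 37.6 to 57.3 CPM (median 46.6) in the 8 controls. All BRWI libraries lay below the lowest control. The log2 change was -0.60 ± 0.13 (SE), a level 0.661 times that of controls (edgeR adjusted p = 0.00451), at a site where 1.14% of all features were called. In LRMN water the libraries had 37.2, 24.4, 31.7 and 31.3 CPM of FKBP5, again all below the lowest control. That change was -0.58 ± 0.12 log2 units (edgeR adjusted p = 0.000679), at the site with the highest share of calls, 17.5% of features. The CROH libraries had 34.4, 30.3, 39.7 and 33.0 CPM of FKBP5, and 3 of them lay below the lowest control. There the change was -0.44 ± 0.12 (edgeR adjusted p = 0.0156, 10.3% of features called), and the call was lost without CROH 2 or CROH 4, with an adjusted p of up to 0.0841.

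ORNY water gave the highest mean of FKBP5, with 67.2, 54.8, 68.3 and 53.5 CPM in its libraries, 2 of them above the highest control of 57.3 CPM. The log2 change was 0.39 ± 0.12 (edgeR adjusted p = 0.0411, 4.09% of features called at ORNY). This call was lost in 9 of 12 refits that each left out 1 ORNY or control library, with an adjusted p of up to 0.247. MAWI followed with 56.5, 55.8, 61.5 and 55.6 CPM, all above the control mean and 1 above the highest control. The MAWI difference of 0.30 ± 0.12 log2 units was not called (edgeR adjusted p = 0.127). With library number as a block, on 60 libraries, it was 0.38 and called (adjusted p = 0.0311), and the ORNY value was 0.46 (0.00834). The block kept the lower calls at BRWI (-0.51), LRMN (-0.49) and CROH (-0.34, adjusted p = 0.0492). Other uncalled differences in FKBP5 included -0.34 ± 0.12 at GRNY (edgeR adjusted p = 0.0608) and -0.29 ± 0.12 at JRMI (adjusted p = 0.188). Ordered from high to low, every group overlapped its neighbour in all 16 neighbouring pairs, so no gap separated neighbouring waters.

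**Figure D2:**
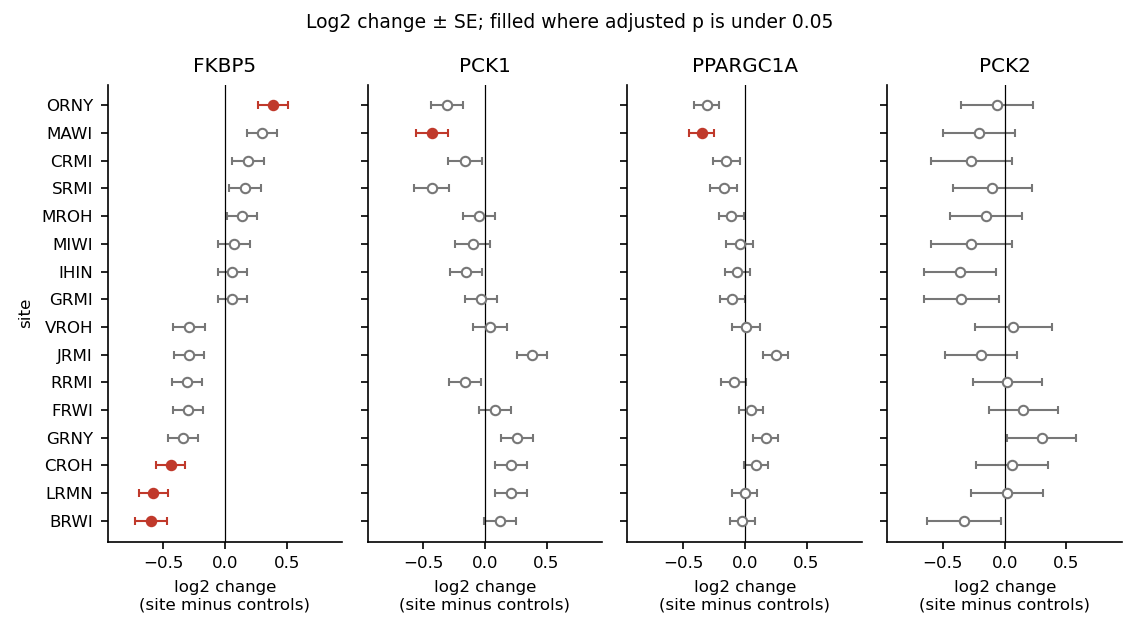
Log2 change of each gene at each site, site minus controls (horizontal axes), with sites ordered down the page by FKBP5 level. Points are estimates, bars are SE and filled red points have an adjusted p under 0.05: FKBP5 is filled at ORNY (0.39), CROH (-0.44), LRMN (-0.58) and BRWI (-0.60), PCK1 and PPARGC1A at MAWI (-0.43 and -0.35), and PCK2 nowhere.

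PER1, the other glucocorticoid target, gave 200 counts over the 68 libraries, with at most 8 in any library and 0 in 13 of them. In MAWI water it gave 0 counts in all 4 libraries, which together held 23.5 M scaled counts. The 8 controls held 8, 2, 5, 2, 7, 2, 3 and 7 counts, a summed 0.435 CPM (exact 95% Poisson interval 0.305 to 0.603), so that 10.2 counts would match the control rate at the depth of MAWI. The control rate was 3.4 times a floor of 3 counts over the MAWI group, 0.128 CPM. This ratio leaves out the counting error of the controls, and the exact 95% Poisson interval at MAWI reached 0.157 CPM. PER1 was lower at MAWI by an exact two-sided permutation test over 495 arrangements (p = 0.00404, adjusted over the 16 sites p = 0.0323). The groups did not overlap, since the lowest control had 2 counts.

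JRMI water gave PER1 counts of 7, 6, 4 and 5, a summed 1.07 CPM (0.672 to 1.62), against the control 0.435 CPM. The ratio to controls was 2.46 (exact permutation p = 0.00606, adjusted p = 0.0323). In LRMN water the counts were 5, 6, 3 and 6, a summed 0.867 CPM (0.529 to 1.34) and a ratio of 1.99 (exact permutation p = 0.00606, adjusted p = 0.0323). PER1 and FKBP5 thus lay on opposite sides of the controls at LRMN, with PER1 higher and FKBP5 lower, both past their tests. These rates rest on few reads. When all libraries were thinned to 2912473 counts, none of the 3 PER1 differences passed (adjusted p = 0.575 each), and an edgeR fit without a low-count filter called PER1 at MAWI (adjusted p = 0.0211) but not at JRMI (0.308) or LRMN (0.337). Leaving out single libraries ended the call in 6 of 12 refits at MAWI, 5 at JRMI and 9 at LRMN, with adjusted p of up to 0.0808, 0.097 and 0.162 by the exact permutation test. A site group of 3 has only 165 arrangements, which limits how small p can be. The MAWI losses were without control 1, control 5 or any MAWI library. All MAWI libraries held 0 counts, so leaving 1 of them out did not change the MAWI level.

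**Figure D3:**
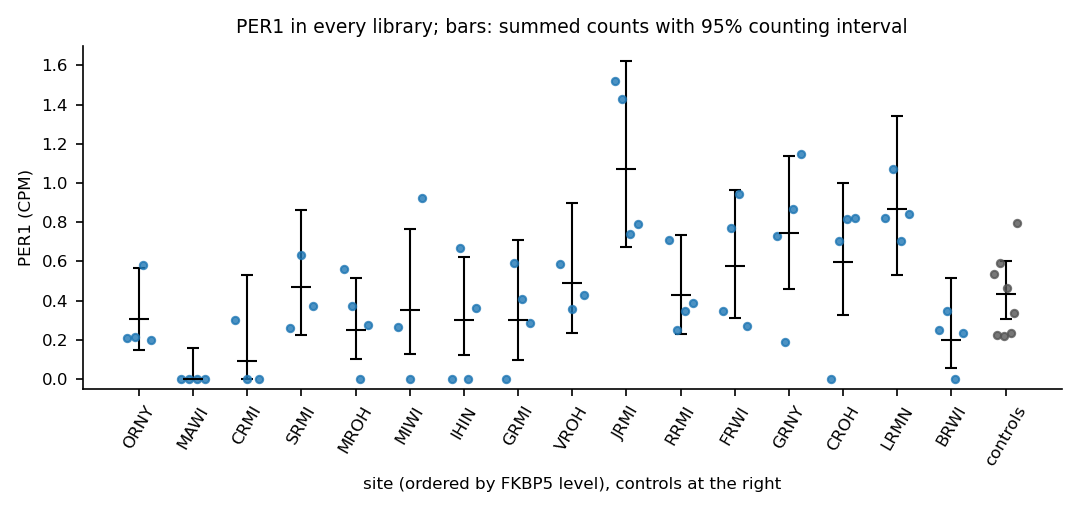
PER1 in CPM (linear axis) at each site, ordered by FKBP5 level, with controls at the right. Points are libraries, and the bar is the rate from summed counts with its exact 95% Poisson interval: MAWI is at 0 in all 4 libraries, and JRMI at 1.07 CPM has the highest rate, against 0.435 CPM in controls.

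NR3C1, which encodes GR itself, was called at 0 of 16 sites. Its highest site mean was 50.7 ± 10.2 CPM at GRNY (SD, n = 4), against 40.9 ± 5.63 CPM in controls (n = 8), a log2 difference of 0.31 ± 0.12 (edgeR adjusted p = 0.0969). Between sites NR3C1 had F = 1.91 (adjusted p = 0.0776). Among 13 tested genes of the receptor's chaperones, cofactors and steroid handling, 7 were called between sites (53.8%, against 49.8% of all features), with a median F of 2.21 against 2.07. At single sites 2 of 208 tests were called as higher (0.962%) and 1 as lower (0.481%), against 1.89% and 2.2% over all features. FKBP4, the co-chaperone that opposes FKBP5 on the receptor, averaged 85.4 ± 34.8 CPM at LRMN (n = 4), against 45.9 ± 13.0 CPM in controls (n = 8), a log2 change of 0.89 ± 0.27 (edgeR adjusted p = 0.0147). Without LRMN 2 it was 0.59 and not called (adjusted p = 0.206). ABCB1, an efflux pump that exports some steroids, was lower at GRNY, and the corepressor NCOR1 was higher at LRMN (log2 changes -0.35 ± 0.11 and 0.33 ± 0.12, edgeR adjusted p = 0.0366 and 0.0369). Both calls were lost in refits without 1 library, with adjusted p of up to 0.166 for ABCB1 and 0.213 for NCOR1.

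Other genes that GR is known to induce moved both ways. Of 25 tested, 15 were called between sites (60%, against 49.8% of all features, median F 2.35 against 2.07). Of 400 single-site tests 25 were called as higher (6.25%) and 21 as lower (5.25%), against 1.89% and 2.2% over all features. GLUL, glutamine synthetase and also a target of Wnt signalling in liver, accounted for 6 of the higher and 6 of the lower calls. It averaged 243.5 ± 17.3 CPM at LRMN and 99.2 ± 12.3 CPM at MAWI (n = 4 each), against 151.1 ± 16.3 CPM in controls (n = 8), with F = 28.9 between sites (edgeR adjusted p = 5.05e-18). MAOA, monoamine oxidase A, averaged 126.4 ± 21.0 CPM at LRMN (n = 4), where it was called as higher (log2 change 0.76 ± 0.20), and 34.4 ± 9.46 CPM at SRMI (n = 3), the lowest of 4 sites called as lower (-1.11 ± 0.24, edgeR adjusted p = 0.00898), against 74.5 ± 12.2 CPM in controls (n = 8). The SRMI call of MAOA was lost without SRMI 1 or SRMI 2 (adjusted p up to 0.169). HPD, an enzyme of tyrosine breakdown, was higher at LRMN (0.54 ± 0.14) and lower at CRMI (-0.76 ± 0.16), and KLF6 was higher at GRNY (0.68 ± 0.16) and lower at MAWI (-0.58 ± 0.17; all past the edgeR test). Without GRNY 4 the KLF6 change at GRNY was 0.36 and not called (adjusted p = 0.125). In LRMN water FKBP5 was therefore lower while GLUL, MAOA, HPD and PER1 were higher than in controls. GLUL, MAOA and HPD were named for their high F between sites. Over all features 9.34% were called as higher at LRMN and 8.2% as lower. At the mean of sites the median log2 difference of the 25 genes was -0.03, against -0.01 over all features, and 1 was called there, MT2A, a metallothionein that metals also induce.

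PPARGC1A and PCK1 were lower together in MAWI water. PPARGC1A in the MAWI libraries was 171.8, 225.5, 210.7 and 216.1 CPM, against 226.5 to 321.5 CPM (median 257.6) in the 8 controls. No MAWI library reached the lowest control. The log2 change was -0.35 ± 0.10, a level 0.784 times that of controls (edgeR adjusted p = 0.0301, 4.71% of features called at MAWI). PCK1 in the same libraries was 2645, 3187, 2747 and 2605 CPM, against 2875 to 4707 CPM (median 3779) in controls, and 3 of the 4 lay below the lowest control. Its log2 change was -0.43 ± 0.13 (edgeR adjusted p = 0.0364). Leaving out single libraries ended the PPARGC1A call without control 1, MAWI 1 or MAWI 3 (adjusted p up to 0.21) and the PCK1 call without control 1, MAWI 1, MAWI 3 or MAWI 4 (up to 0.15). With CRMI 1 and SRMI 3 in the fit neither was called, with adjusted p of 0.0997 for PPARGC1A and 0.204 for PCK1.

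Waters from SRMI and ORNY also had low means of PCK1. The SRMI libraries had 2955, 2557 and 2869 CPM, all below the control mean of 3774 ± 508 CPM (SD, n = 8), and the difference of -0.43 ± 0.14 was not called (edgeR adjusted p = 0.112). With SRMI 3 in the fit and only VROH 2 left out it was -0.69 (adjusted p = 0.0132), and with all 71 libraries -0.70 (adjusted p = 0.269). Blocked on library number, it was -0.60 (edgeR adjusted p = 0.0486). At ORNY PCK1 averaged 3039.5 ± 503.3 CPM (n = 4) with a difference of -0.31 ± 0.13 (adjusted p = 0.163), and PPARGC1A 212.3 ± 30.3 CPM (n = 4), against 262.8 ± 28.1 CPM in controls, with -0.31 ± 0.10 (adjusted p = 0.0628). The ORNY value of PPARGC1A passed in DESeq2 (adjusted p = 0.0253), with RLE scaling (0.0494) and with library number as a block (0.0207). It did not with thinned counts (0.135), only VROH 2 left out (0.174), ORNY and controls alone (0.0875) or all 71 libraries (0.563). Without ORNY 3 it was -0.23 (adjusted p = 0.379), and without ORNY 4 it was -0.40 (adjusted p = 0.00802).

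JRMI and GRNY water had the highest means of both genes, without a call. PCK1 in JRMI water was 4186, 6198, 4853 and 4447 CPM, with 2 libraries above the highest control of 4707 CPM, and its log2 difference was 0.38 ± 0.12 (edgeR adjusted p = 0.0764). Without control 1 the PCK1 difference at JRMI passed the test, with an adjusted p of 0.0333. PPARGC1A in JRMI water was 259.2, 421.4, 277.1 and 296.3 CPM, a difference of 0.25 ± 0.10 (adjusted p = 0.143), with 1 library above the highest control of 321.5 CPM. Without that library, JRMI 2, the difference was 0.09 (adjusted p = 0.72). At GRNY PCK1 spread from 2828 to 5999 CPM over 4 libraries (difference 0.26 ± 0.13, adjusted p = 0.175). It was 0.41 without GRNY 4, where it passed (adjusted p = 0.0337), and 0.09 without GRNY 2 (adjusted p = 0.702).

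Across the 16 sites and the controls, group means of PCK1 and PPARGC1A went together, with r = 0.91 and rho = 0.92 over 17 groups. Without JRMI and MAWI, the groups farthest from the median of PCK1, r was 0.85. Within groups the deviations of 68 libraries from their group means also went together (r = 0.73). Among the 6915 other features PCK1 ranked 8 by likeness to PPARGC1A over group means. FKBP5 ran against both: r = -0.80 with PCK1 and -0.74 with PPARGC1A over group means, and only -0.15 and -0.19 within groups. Without BRWI and LRMN the values over group means were -0.80 and -0.85. By likeness to FKBP5 over group means, PCK1 ranked 705 and PPARGC1A 1038 from the bottom of 6915 features. Many features outside the set thus ran against FKBP5 at least as strongly. PER1 rates over the same 17 groups had r = 0.72 with PCK1, 0.78 with PPARGC1A and -0.61 with FKBP5. All these points share libraries, scaling and, for the sites, a lower depth than the controls, and the correlations are descriptions.

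**Figure D4:**
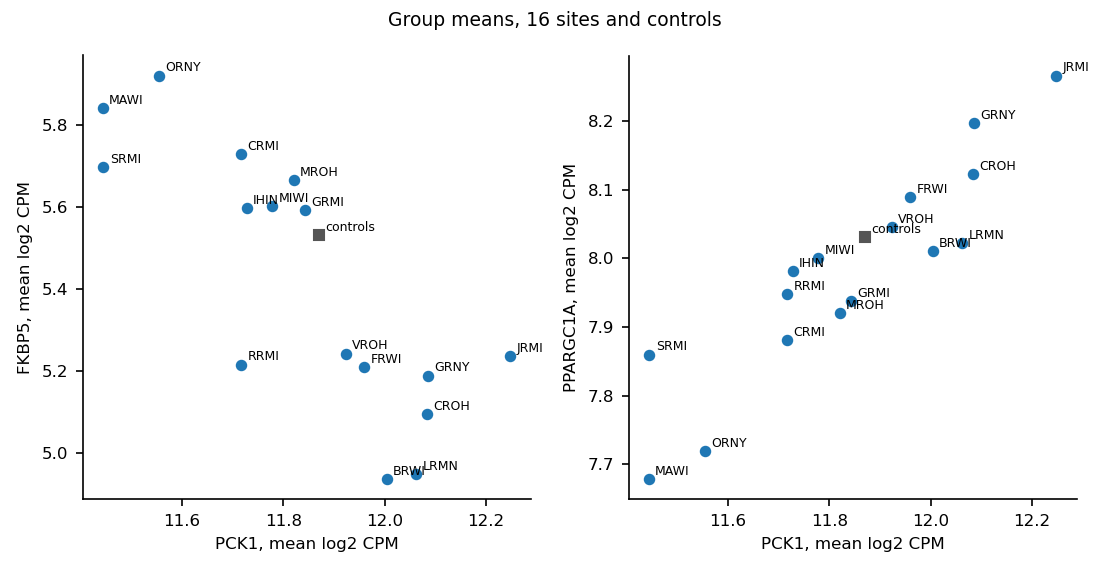
Group means of FKBP5 (left) and PPARGC1A (right) against PCK1, all in log2 CPM. Each labelled point is 1 of 16 sites (blue) or the controls (grey square): PPARGC1A goes up with PCK1 (r = 0.91) and FKBP5 goes down (r = -0.80).

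Features most like each gene over the 17 group means were looked up across the table. For FKBP5 they were CHCHD10, a mitochondrial cristae protein (r = 0.972), PFDN6, a prefoldin subunit (0.969), and CMTM7 (0.966). CHCHD10 was lower at LRMN, with a log2 change of -0.51 ± 0.12 (edgeR adjusted p = 0.00138), and PFDN6 was higher at ORNY (0.34 ± 0.10, adjusted p = 0.0466, lost in 10 of 12 refits without 1 library). For PCK1 the first was ENO2, an enolase that works in glycolysis and gluconeogenesis (r = 0.952), then PRKRA (0.943) and PAWR (0.942). PAWR, an inducer of apoptosis, averaged 319.4 ± 27.8 CPM at JRMI and 155.4 ± 15.1 CPM at MAWI (n = 4 each), against 226.6 ± 27.3 CPM in controls (n = 8), both past the edgeR test (log2 changes 0.50 ± 0.11 and -0.54 ± 0.11). For PPARGC1A they were GTPBP1 (r = 0.935), DRAM2 (0.926) and PCBP2 (0.926). For PCK2 they included PPP2R5D (0.845) and MMEL1 (0.844), neither of them called between sites.

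PCK2 did not pass the test at any site. Log2 differences from controls ran from -0.36 to 0.30 with SE of 0.28 to 0.33, so changes of that size could not be resolved. Site means were lowest at GRMI, 34.2 ± 6.43 CPM, and IHIN, 34.2 ± 6.00 CPM, and highest at GRNY, 54.2 ± 46.6 CPM (SD, n = 4 each), against 43.8 ± 10.9 CPM in controls (n = 8). Dishes of the same water spread widely. In GRNY water PCK2 was 50.0, 23.1, 22.4 and 121.4 CPM, in LRMN water 21.9, 84.4, 46.3 and 25.6 CPM, and in CROH water 39.0, 32.6, 79.0 and 31.5 CPM, against 29.7 to 65.6 CPM (median 40.9) in controls. GRNY, LRMN and CROH thus each held 1 library above the highest control, and GRNY and LRMN also held 2 below the lowest. In a fit that kept it, the SRMI library that had been set aside reached 365.9 CPM, against 32.9 to 46.0 CPM in the other SRMI libraries and at most 65.7 CPM in controls.

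In dishes with more PCK2, PCK1 tended to be lower. Deviations of the 2 carboxykinases from their group means had r = -0.75 over 68 libraries, and -0.66 without GRNY 4 and LRMN 2, whereas their group means were unrelated (r = 0.03 over 17 groups). GRNY 4 lay 1.51 log2 units above its group mean for PCK2 and 0.62 below it for PCK1 (a deviation of -0.62). JRMI 2 lay at -0.98 for PCK2 and 0.35 for PCK1. PPARGC1A also ran against PCK2 within groups (r = -0.56). The same dishes deviated over many genes: over 3334 abundant features the SD of a library around its group mean (log2 CPM) was 0.847 in GRNY 4, 0.825 in JRMI 2 and 0.68 in GRNY 2, against a median of 0.293 over the 68 libraries. Large deviations in PCK2 and in overall RNA profile thus met in these dishes, but not in all. LRMN 1 lay at -0.80 for PCK2 with an SD of 0.273, and FRWI 1 at 0.05 with an SD of 0.566. The part of the overall profile in the spread of PCK2 was not tested. In bulk RNA, fewer cells with a transcript and less of it per cell cannot be told apart.

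Other targets of ATF4 were set beside PCK2, since ATF4 is known to induce it when amino acids run short. The mean deviation of 27 listed targets had r = 0.73 with that of PCK2 and -0.60 with that of PCK1. The targets moved both ways with PCK2. MTHFD2, a mitochondrial folate enzyme, had r = 0.80 with PCK2, PHGDH of serine synthesis 0.75 and ALDH18A1 of proline synthesis 0.72. The tRNA synthetases were split. MARS had 0.75, IARS 0.52, AARS 0.32 and CARS 0.07, while GARS and NARS had -0.76 and -0.73. The median r of the list was 0.32, against 0.04 over all features; 10 of 27 were above 0.5, as were 14% of all features. ASNS, asparagine synthetase, deviated by 1.78 log2 units in GRNY 4 and by -1.74 in JRMI 2.

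**Figure D5:**
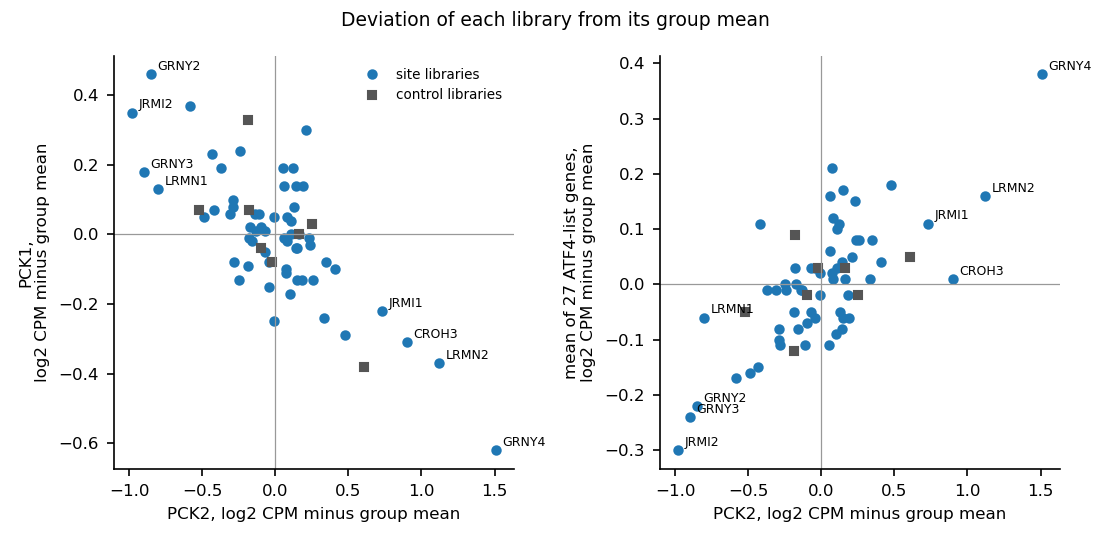
Deviation of each library from its group mean in log2 CPM, PCK2 on the horizontal axes, PCK1 (left) and the mean of 27 listed ATF4 targets (right) on the vertical axes. Each point is 1 of 60 site libraries (blue) or 8 control libraries (grey squares), and libraries with large PCK2 deviations are named: high PCK2 goes with low PCK1 (r = -0.75) and with a higher mean of the list (r = 0.73).

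Between waters, as opposed to between dishes, 16 of the 27 ATF4 targets were called (59.3%, against 49.8% of all features). In 432 single-site tests 8 were called as higher (1.85%) and 29 as lower (6.71%), against 1.89% and 2.2% over all features. PSAT1, of serine synthesis, averaged 28.3 ± 5.12 CPM at LRMN (n = 4), against 66.1 ± 9.61 CPM in controls (n = 8), a log2 change of -1.22 ± 0.17 (edgeR adjusted p = 6.58e-07). At the same site ALDH18A1 was higher (1.20 ± 0.24, adjusted p = 0.00034) and ALDH1L2 lower (-0.95 ± 0.15, adjusted p = 7.68e-06).

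FBP1 gave few reads, with 17 counts in all 68 and 0 in 55 of them. The 8 controls held 2 counts over 82.7 M, 0.0242 CPM (exact 95% Poisson interval 0.00293 to 0.0874). JRMI held 4 counts in 4 libraries and MIWI 3 counts in 1 of its 3 libraries, and every other site held 2 or fewer. No fold is given against controls at or under the floor of 3 counts, and by exact permutation 0 of 16 sites passed, with adjusted p of 0.824 or more. A difference in FBP1 was not detectable at this depth. Intervals and floors cover counting error only, because PCR copies of a ligated product were not told apart.

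Around the 3 enzymes, 25 other genes of gluconeogenesis and linked steps were tested. Of these, 13 were called between sites (52%, against 49.8% of all features, median F 2.21 against 2.07). There were 16 higher and 9 lower calls in 400 single-site tests, shares of 4% and 2.25%, against 1.89% and 2.2% over all features. GPD1, which links glycerol to the pathway, averaged 4.25 ± 0.854 CPM at LRMN (n = 4) and 21.0 ± 1.95 CPM at CRMI (n = 3), against 11.6 ± 1.30 CPM in controls (n = 8), with log2 changes of -1.45 ± 0.21 and 0.85 ± 0.19 (edgeR adjusted p = 8.11e-07 and 0.00537). PGAM1, phosphoglycerate mutase, was higher at LRMN (0.68 ± 0.11), and PFKFB3, whose product drives glycolysis, was higher at 4 sites, most at CROH (0.82 ± 0.15). MDH2, mitochondrial malate dehydrogenase, differed between sites (F = 9.19), with its lowest mean at SRMI (-0.30 ± 0.08, adjusted p = 0.0541).

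Regulators of gluconeogenesis held the highest share of calls among the lists. Of 30 tested, 21 were called between sites (70%, against 49.8% of all features, median F 3.38 against 2.07). There were 35 higher (7.29%) and 14 lower (2.92%) calls in 480 single-site tests, against 1.89% and 2.2% over all features. NR5A2, the nuclear receptor LRH-1, averaged 46.1 ± 4.79 CPM at LRMN and 16.7 ± 2.22 CPM at MAWI (n = 4 each), against 24.9 ± 3.90 CPM in controls (n = 8), with 6 sites called as higher and 1 as lower. The pioneer factor FOXA1 was higher at 5 sites, most at GRNY (0.48 ± 0.11), and lower at CRMI (-0.38 ± 0.13), a call that 8 of 11 refits without 1 library lost. INSR, the insulin receptor, was higher at 4 sites, most at LRMN (0.50 ± 0.10). PPARA, the fasting-response receptor, was lower at 2 sites, most at ORNY (-0.67 ± 0.14, edgeR adjusted p = 0.00292). Genes named that were below controls in MAWI water, each past its test, included PCK1, PPARGC1A, PER1, GLUL, KLF6 and NR5A2. PAWR and GTPBP1, named only for likeness to PCK1 and PPARGC1A, were lower there as well. Their log2 changes were -0.54 ± 0.11 and -0.53 ± 0.10 (edgeR adjusted p = 0.00147 and 0.000369). GLUL, KLF6 and NR5A2 were named for their high F between sites, so they do not stand for their lists. Over all features 2.56% were called as lower at MAWI and 2.15% as higher. FKBP5 averaged 57.4 ± 2.79 CPM at MAWI (n = 4), against 46.6 ± 5.90 CPM in controls (n = 8), without passing. The KLF6 and NR5A2 calls at MAWI were each lost in 4 of 12 refits without 1 library, with adjusted p of up to 0.195 and 0.154.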

How the data were processed

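HepG2 RNA was measured by TempO-Seq in 71 libraries. The authors deposited expected counts (estimated read counts) per gene symbol; the submitters' processing notes name Salmon and GRCh38, with versions not given in the sources used here. Within libraries 1 read was worth 0.9933 to 1.0036, and of values under 20 a median of 93.2% came within 0.02 of whole multiples. The table held here is alphabetical, with 31012 complete entries, and ends at RAI14, whose incomplete entry was left out. Columns were matched to labels by name, and for MIWI and 1 GRMI library by site alone.

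Counts were rounded and 68 libraries fitted with edgeR 4.0.16 (R 4.3.3), its quasi-likelihood test and TMM scaling, in 1 model of 17 groups with 51 residual degrees of freedom. filterByExpr with a minimum count of 10 kept 6916 of 12425 features. Each site, the mean of sites and the sites among themselves were tested, with Benjamini-Hochberg adjustment over features and calls at adjusted p under 0.05. SE came from the test's F value. PER1 and FBP1, below the filter, were tested by exact two-sided permutation of CPM over libraries, adjusted over sites, with exact Poisson intervals at 95%. Correlations used log2(CPM + 0.5) means or deviations. In each list the 4 genes with the highest F between sites were named, and for each tested gene of the set the 3 features most like it. A result that this rule selects is not reported here. MT2A, ASNS and the ATF4 targets named by their correlation with PCK2 were chosen after their values were seen. The members and lists were chosen with earlier results of these data known. The procedure was tested on simulated data. Alternatives were all 71 libraries, only VROH 2 left out, RLE scaling, DESeq2 1.42.0, no filter, a replicate block, thinned counts, a site with controls alone, adjustment over all sites, and leaving out each library.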

Additional observations from a re-analysis of the deposited data

Results flagged for a closer look

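For the 4 tested genes in groups of 4 or more libraries, 52 combinations of gene and group were examined. In 4 of them 1 library stood far from the rest of its group, where chance gives about 5% of combinations. Genes share libraries, so the combinations are not independent. FKBP5 was 55.1 CPM in IHIN 1, against 45.7 to 46.7 CPM in the other IHIN libraries, and 61.5 CPM in MAWI 3, against 55.6 to 56.5 CPM in the other MAWI libraries. PCK2 was 79.0 CPM in CROH 3, against 31.5 to 39.0 CPM in the other CROH libraries, and 43.2 CPM in IHIN 1, against 30.7 to 32.2 CPM.

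The effect of the water differed between the 16 sites for FKBP5 (edgeR F = 9.77, adjusted p = 2.22e-09), PCK1 (F = 5.09, adjusted p = 2.17e-05) and PPARGC1A (F = 3.69, adjusted p = 0.000704).

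In the libraries set aside, CRMI 1 held 5242.6 CPM of PCK1 (highest control 4716.2) and 382.2 CPM of PPARGC1A (highest control 322.1), and SRMI 3 held 365.9 CPM of PCK2 (highest control 65.7).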

How the results depend on the processing

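PCK2 at SRMI, -0.10 and not called, was 1.47 with all 71 libraries or only VROH 2 left out, which both hold SRMI 3, 0.11 with the replicate block and -0.20 to 0.02 without 1 library. No other single-gene value recomputed reversed. Of 34 called values of named list genes and similar features, 23 lost their call with all 71 libraries and 14 with only VROH 2 left out, and 20 kept it without any 1 library. With all 71 libraries, only FKBP5 at LRMN was kept of the 6 single-site calls among the 4 tested genes. PCK2 at SRMI is not counted there, since its value rests on the SRMI 3 level used by the rule. In the same fit, called genes of the 5 lists numbered 46 (against 71). Features called between sites numbered 2073 (against 3446) and feature-by-site calls 982 (against 4528). With only VROH 2 left out, feature-by-site calls numbered 2142. The replicate block, which could be fitted on 60 libraries of 15 sites and controls, gave 2357 such calls and 9 among the 4 genes, adding FKBP5 at MAWI (0.38, edgeR adjusted p = 0.0311), PPARGC1A at ORNY (-0.44, 0.0207) and PCK1 at SRMI (-0.60, 0.0486). Over all features, same-numbered libraries did not consistently deviate together (18 of 56 pairs with r over 0.1, 14 of 56 best with their own number). Such a comparison with single control libraries cannot exclude a shared effect of the number on some genes. For FKBP5 the edgeR F between sites was 17 with the block (adjusted p = 1.09e-11), against 9.77 without it. Whether the numbers pair the samples was therefore not settled. The cause of these shifts was not tested.

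Leaving out 1 library at a time gave 4 to 10 single-site calls among the 4 genes, 3 genes called between sites in every refit and 0 at the mean of sites, 67 to 76 called list genes, 3306 to 3641 features called between sites and 3853 to 5394 feature-by-site calls. The count of 10 came without GRNY 4 and added PCK1 at GRNY, JRMI and SRMI and PPARGC1A at ORNY. FKBP5 at BRWI and LRMN held in all 12 refits each. At ORNY the FKBP5 call was also lost without the low-count filter, with thinned counts and with ORNY and controls alone. The PPARGC1A call at MAWI was lost with thinned counts (adjusted p = 0.0706). Depth limits PER1 and FBP1 most, with at most 8 and 3 counts in a library.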
